A study of Homo sapiens with 12 samples.

Results

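The genes described here are ORM1 and 7 further genes of acute phase proteins, ORM2, LCN2, SERPINA1, HP, CP, SAA1 and SAA2, which together are 8 of the 58735 genes in the count table. ORM1 was chosen by its higher count in the OE-MMP28 group than in the control group, and the others were added by name as acute phase proteins, so the values of that comparison are given as a description without a test. The acute phase response is the change in plasma proteins that follows infection, injury or cancer. Cytokines, IL-6 and IL-1 above all, act on the liver through STAT3, C/EBP and NF-κB transcription factors, and the liver then secretes these proteins into the blood. Macrophages and neutrophils make some of the same proteins locally.

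RNA was sequenced from TAMs (tumour-associated macrophages), made from the human monocytic leukaemia line THP-1 by differentiation with the phorbol ester PMA, which had shared a Transwell coculture with the human pancreatic cancer line AsPC-1. The control group shared its coculture with AsPC-1 cells that carried empty vector, and is labelled NC. In the OE-MMP28 group the AsPC-1 cells stably overexpressed the metalloproteinase MMP28 from a lentivirus. The remaining groups had the same OE-MMP28 coculture with a neutralizing antibody against IL-8 (the anti-IL-8 group) or against VEGFA (the anti-VEGFA group). Each of the 4 groups had 3 libraries, and no library of a group with a control antibody was analysed here. All groups therefore share 1 macrophage line, PMA and the presence of cancer cells, and the study's methods state in general that cell experiments were repeated independently and that sequenced groups had triplicate samples. They do not tie the libraries of a TAM group to separate cultures, so a p-value here measures the spread between these libraries, which may be technical.

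The libraries held 15852346 to 18701195 counts, so that 3 counts corresponded to 0.160 to 0.189 CPM (counts scaled to a fixed library total). Mitochondrial genes took 6.92% to 17.8% of the counts, the highest share being that of anti-VEGFA replicate 2. MMP28 was overexpressed in the cancer cells and had 0 counts in all 12 TAM libraries, so it does not check the labels. Of 9 macrophage markers, 8 passed the filter on low counts, with CD14 at 11260 to 28850 counts per library, although CD68 had only 0 to 5. Of 9 markers of pancreatic epithelium, 2 passed, and EPCAM and TFF1 had 0 counts in every library.

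ORM1 and ORM2 both encode alpha-1-acid glycoprotein (orosomucoid), a plasma carrier of basic and lipophilic drugs in the lipocalin family. They lie side by side on the forward strand of chromosome 9, ORM1 (ENSG00000229314) at chr9:114323056-114326475 and ORM2 (ENSG00000228278) at chr9:114329869-114333252 in GRCh38, 3393 bases apart. Each has 6 exons and 603 coding bases in the GENCODE 29 annotation, and the coding sequences differ at 31 bases (94.9% identity). The most different stretch of 60 coding bases, from coding base 338 to 397 in exon 4, is printed because it holds 14 of the 31 differing bases. Capitals mark the 14 bases that differ (GENCODE 29 transcripts, forward strand, ORM1 at chr9:114324799-114324858 and ORM2 at chr9:114331576-114331635).
ORM1: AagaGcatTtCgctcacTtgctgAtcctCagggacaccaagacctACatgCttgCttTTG
ORM2: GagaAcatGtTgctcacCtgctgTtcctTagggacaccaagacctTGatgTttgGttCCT
Elsewhere the pair is harder to separate. The longest identical coding run was 206 bases, and 47.4% of all 50-base windows of the 802-base ORM1 transcript also occurred in ORM2, against 33.7% of 100-base windows and 21.0% of 150-base windows. The read length is not given in the sources used here, so how many reads were shared or dropped in counting is unknown.

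Promoter sequence from RefSeq (GRCh38.p14) was given for 3 of the 8 genes, ORM1, LCN2 and SERPINA1. The starts meant here are those of RefSeq, which lie inside the GENCODE 29 genes whose coordinates are printed in this report. The end of the ORM1 stretch, with its TATAAA, and the end of the printed SERPINA1 stretch therefore lie within those genes. The LCN2 stretch (chr9:128149203-128149452) lies wholly within its gene. The 250 bases before the start of ORM1 (chr9:114322848-114323097, forward strand) and before the first of 2 listed starts of SERPINA1 (chr14:94390636-94390885, reverse strand) are printed because only these genes had counts enough for a test. Both are written 5′ to 3′ and capitals mark a TATA box.
ORM1 promoter: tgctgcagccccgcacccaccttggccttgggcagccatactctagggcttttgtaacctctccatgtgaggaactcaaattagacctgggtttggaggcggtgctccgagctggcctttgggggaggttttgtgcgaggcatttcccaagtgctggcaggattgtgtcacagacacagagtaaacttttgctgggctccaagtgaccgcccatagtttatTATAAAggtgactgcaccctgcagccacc
SERPINA1 promoter: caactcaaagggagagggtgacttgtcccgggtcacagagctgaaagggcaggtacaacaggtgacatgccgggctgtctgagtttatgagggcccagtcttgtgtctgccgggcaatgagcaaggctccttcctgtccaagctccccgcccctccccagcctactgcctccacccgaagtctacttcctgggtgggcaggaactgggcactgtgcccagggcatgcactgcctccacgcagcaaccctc
The ORM1 sequence held 1 TATAAA, whose first base lies 29 bases before the RefSeq start, and neither SERPINA1 sequence held one. TATAAA was added to the search after the sequences were seen, and 10.7% of 35116 promoters of this length held it on either strand. The letters TTGCNNAA (C/EBP), TTCNNNGAA (STAT) and the NF-κB consensus were absent from the ORM1 and SERPINA1 sequences on both strands. Among all promoters 9.05%, 6.57% and 9.96% held them, respectively. The LCN2 promoter held 1 C/EBP match, 143 bases before the start, and 1 NF-κB match, 175 bases before it. These matches describe letters and are not shown binding sites.

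Of the 8 genes, ORM1 and SERPINA1 were measured well and the other 6 were at or near the limit of detection. ORM1 had 1495 counts over the 12 libraries and SERPINA1 had 23422, whereas ORM2 had 47, CP 32, HP 22, SAA2 4, SAA1 2 and LCN2 1. Both well-measured genes had at least 25 counts in every library and passed the filter on low counts with 16046 genes in all, so 2 members were tested and 6 were not. Per gene length, the median over the libraries was 21.2 FPKM for SERPINA1 and 8.70 FPKM for ORM1. By contrast it was 0.223 FPKM for ORM2, 0.0207 FPKM for CP, 0.0111 FPKM for HP and 0 for LCN2, SAA1 and SAA2.

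**Figure D1:**
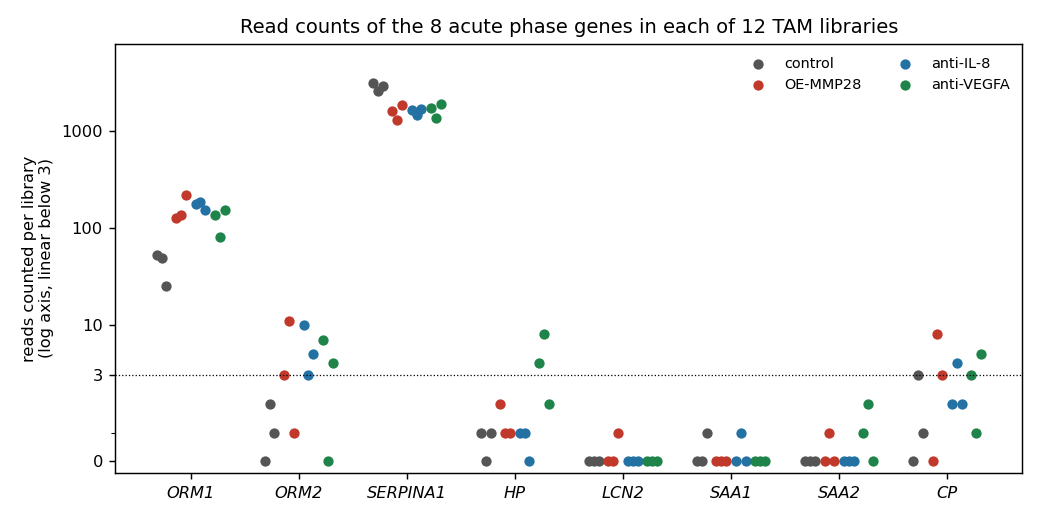
Reads counted for each of the 8 acute phase genes in each of the 12 TAM libraries, on a log axis that is linear below 3 counts (dotted line). Points run from replicate 1 to 3 within each group. The 3 control libraries lie at the bottom for ORM1 (25 to 53 counts) and at the top for SERPINA1 (2637 to 3167 counts), and LCN2, SAA1 and SAA2 never exceed 2 counts.

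ORM1 was lowest in the control group. The counts were 53, 49 and 25 in the control libraries and 128, 135 and 219 in the OE-MMP28 libraries. They were 178, 185 and 154 with anti-IL-8 and 135, 81 and 153 with anti-VEGFA. Every library of the other groups exceeded every control library, while those 3 groups overlapped with one another except that each anti-IL-8 count was higher than each anti-VEGFA count. Scaled for library composition by TMM, the level of ORM1 was 2.48 ± 0.877 CPM in the control group, 9.53 ± 3.61 CPM with OE-MMP28, 10.8 ± 0.746 CPM with anti-IL-8 and 7.11 ± 1.70 CPM with anti-VEGFA (mean ± SD, n = 3 each). In FPKM the same order held, from 2.72 ± 0.974 in the control group to 11.9 ± 0.740 with anti-IL-8 (SD, n = 3 each). In bulk RNA, fewer cells that express a gene and less RNA per cell cannot be told apart.

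The spread of ORM1 differed between the groups. OE-MMP28 replicate 3 stood at 13.7 CPM against 7.04 and 7.89 CPM in its companions, a coefficient of variation of 37.9%. The control libraries, at 3.13, 2.83 and 1.48 CPM, varied by 35.4%. With anti-IL-8 the values were 11.5, 11.0 and 9.99 CPM and varied by 6.90%. With anti-VEGFA, replicate 2 was at 5.14 CPM, below 8.02 and 8.16 CPM in replicates 1 and 3, and it is also the library with the largest mitochondrial share. Against control the anti-VEGFA group had a log2 fold change of 1.48 with all libraries, 1.67 without this library and 1.47 with all mitochondrial genes left out of the fit. The part of the mitochondrial share in the result was not tested.

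**Figure D2:**
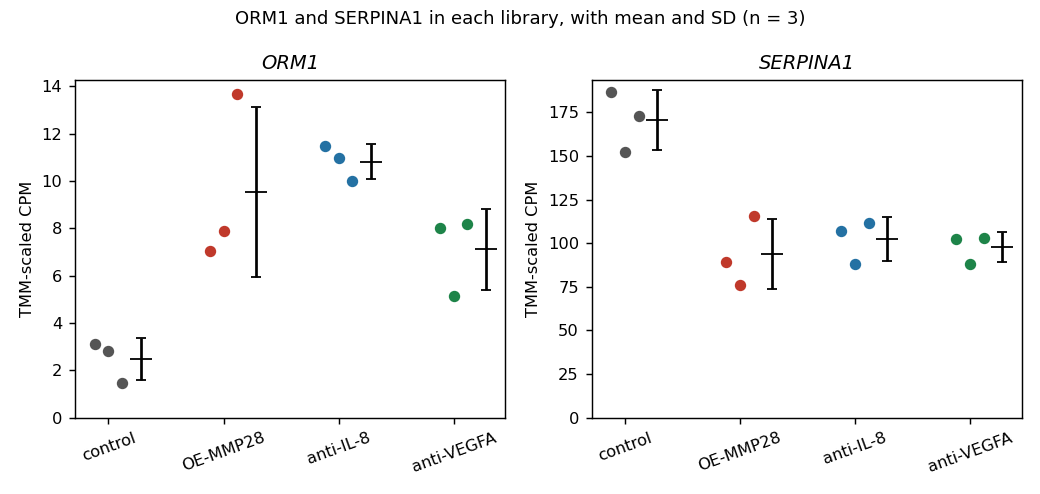
Level of ORM1 (left) and SERPINA1 (right) in TMM-scaled CPM for each library, with the mean and SD of each group of 3 beside the points. For ORM1 the control libraries (1.48 to 3.13 CPM) lie below all others, and for SERPINA1 they (152 to 187 CPM) lie above all others.

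The study asked what coculture with MMP28-overexpressing cancer cells does to TAMs, and for ORM1 this is the comparison by which it was chosen. Its fitted log2 fold change of OE-MMP28 against control was 1.89 (SE 0.28), or 3.70-fold. In all, 0.523% of the 16046 tested genes were called higher and 2.64% lower in this comparison at an adjusted p under 0.05 (edgeR quasi-likelihood test with Benjamini-Hochberg adjustment, as for every adjusted p here). The rule used this comparison, so nothing is read from it beyond the values.

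The antibody groups were then compared with the control group, whose libraries also entered the comparison that chose ORM1. These groups differ from control in both MMP28 overexpression and the antibody, which cannot be told apart here. ORM1 was 4.20-fold higher with anti-IL-8 than in the control group (95% CI 2.80 to 6.31, adjusted p = 8.89e-05), and in this comparison 9.77% of all genes were called higher and 10.9% lower. With anti-VEGFA it was 2.79-fold higher than in the control group (95% CI 1.85 to 4.20, adjusted p = 0.00287), where 5.6% of all genes were called higher and 5.37% lower. Leaving out each library in turn kept the log2 fold change between 1.82 and 2.26 for anti-IL-8 and between 1.22 and 1.67 for anti-VEGFA, with both calls retained.

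The next question was whether an antibody moved ORM1 away from its level with OE-MMP28 alone, and these comparisons share the OE-MMP28 libraries with the one that chose ORM1. No difference was detected. With anti-IL-8 the log2 fold change was 0.18 (SE 0.25, 95% CI -0.34 to 0.71, adjusted p = 0.656), an interval that runs from 0.787-fold to 1.64-fold. With anti-VEGFA it was -0.41 (SE 0.26, 95% CI -0.95 to 0.13, adjusted p = 0.389), from 0.519-fold to 1.09-fold. These estimates rested in good part on OE-MMP28 replicate 3, since without it the log2 fold changes became 0.54 (adjusted p = 0.0997) for anti-IL-8 and -0.07 (adjusted p = 0.882) for anti-VEGFA. The anti-VEGFA value also moved to -0.22 without anti-VEGFA replicate 2. Over all genes, edgeR called 0% in either direction for anti-IL-8 against OE-MMP28 (4700 genes at an unadjusted p under 0.05, and 2259 called by DESeq2 and 0 by voom). For anti-VEGFA against OE-MMP28 it called 0.312% higher and 0.0312% lower.

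The antibody groups against each other share no library with the comparison that chose ORM1. Here ORM1 was lower with anti-VEGFA in each of the 3 libraries than in any anti-IL-8 library, with a log2 fold change of -0.59 (SE 0.25, 95% CI -1.13 to -0.06). The unadjusted p of 0.0319 became an adjusted p of 0.291, so the difference did not pass. Over all genes 0.193% were called higher and 0.00623% lower with anti-VEGFA. Ordered by level, ORM1 thus ran from anti-IL-8 through OE-MMP28 and anti-VEGFA to control, and only the step from anti-VEGFA to control passed the test. That step uses the control libraries, which entered the comparison that chose ORM1.

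**Figure D3:**
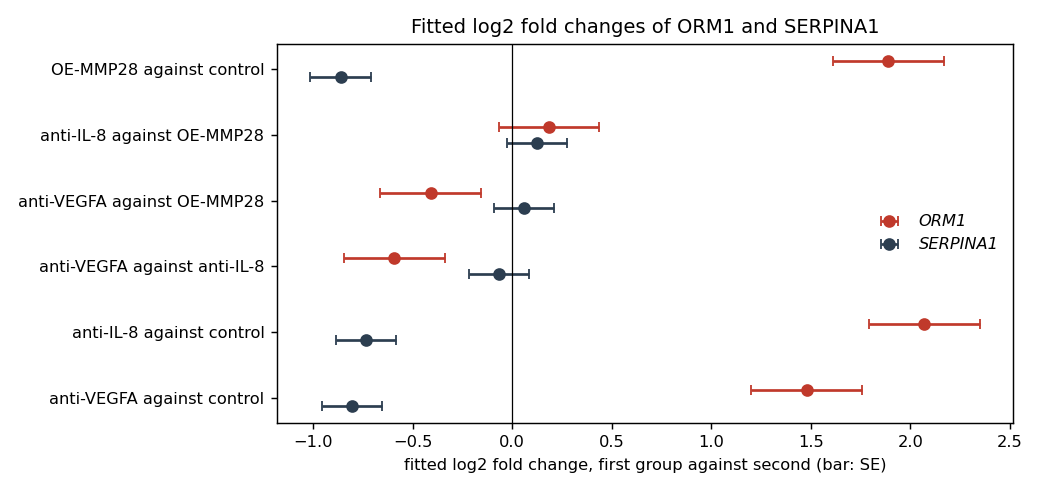
Fitted log2 fold change of ORM1 and SERPINA1 in each of the 6 comparisons between groups, first-named group against second, with bars of 1 SE. ORM1 lies right of 0 and SERPINA1 left of it in the 3 comparisons against control, and in the comparisons among the 3 OE-MMP28 groups the values run from -0.59 to 0.18.

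ORM2 was counted far less often than its neighbour. It had 0, 2 and 1 counts in the control libraries, 3, 11 and 1 with OE-MMP28, 10, 3 and 5 with anti-IL-8 and 7, 0 and 4 with anti-VEGFA. The groups overlapped, 2 libraries had none, and only 5 had more than 3 counts, so no fold change is given. Of the 1542 counts assigned to the pair, ORM2 took 3.05% (Wilson 95% interval 2.30% to 4.03%). Its share was 2.31% (0.788% to 6.57%) in the control group, 3.02% (1.84% to 4.92%) with OE-MMP28, 3.36% (2.14% to 5.26%) with anti-IL-8 and 2.89% (1.62% to 5.11%) with anti-VEGFA. These intervals cover counting error only, and they overlap in all groups. With the counts of both genes summed before the fit, the anti-IL-8 group lay 2.09 and the anti-VEGFA group 1.49 above control on the log2 scale, close to ORM1 alone.

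LCN2 encodes another lipocalin, which binds bacterial siderophores and is stored in neutrophil granules. The gene (ENSG00000148346, chr9:128149071-128153455, forward strand, 7 exons) had 1 count in OE-MMP28 replicate 3 and 0 in the other 11 libraries. At this depth a level below about 0.160 to 0.189 CPM per library was not detectable. Neutrophil granule markers were summed beside ORM1, whose protein neutrophils also store. They ranged from 71.0 to 86.6 CPM in the control libraries, from 85.9 to 121 CPM with OE-MMP28, from 103.5 to 115.5 CPM with anti-IL-8 and from 111 to 126 CPM with anti-VEGFA. Of the 10 markers 6 passed the filter, and OLFM4 and CEACAM8 had 0 counts in every library. This sum was thus also lowest in the control group, overlapping only with OE-MMP28, and its part in the ORM1 result was not tested. AZU1 at 439 to 1203 counts per library and MMP8 at 391 to 954 weighed most in it, while LTF had 5 to 20. The granule sum therefore does not show that each granule marker moved. The summed macrophage markers moved the same way, from 2110 to 2336 CPM in the control group up to 2956 to 3428 CPM with anti-IL-8. CD14 weighed most in this sum, at 11260 to 28850 counts per library, followed by ITGAM at 6266 to 10445. The sum therefore does not show that each marker moved.

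SERPINA1 encodes alpha-1-antitrypsin, the main plasma inhibitor of neutrophil elastase, and it was the most abundant of the 8 genes. It lies at chr14:94376747-94390693 on the reverse strand (ENSG00000197249, 5 exons in the principal transcript). Its direction was opposite to that of ORM1. The counts were 3167, 2637 and 2919 in the control libraries, against 1627, 1304 and 1855 with OE-MMP28. They were 1666, 1488 and 1722 with anti-IL-8 and 1724, 1384 and 1929 with anti-VEGFA. Every control library exceeded every other library, and the 3 OE-MMP28 groups overlapped with one another.

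In CPM, SERPINA1 stood at 171 ± 17.4 in the control group, 93.8 ± 20.1 with OE-MMP28, 102 ± 12.5 in the anti-IL-8 group and 97.7 ± 8.53 in the anti-VEGFA group (SD, n = 3 each). Per length this was 34.4 ± 3.53 FPKM in the control group and 18.9 ± 4.02 FPKM with OE-MMP28 (SD, n = 3 each), the latter still above ORM1 at 10.5 ± 3.93 FPKM in the same libraries. Against control the fitted level with OE-MMP28 was 0.550-fold (log2 fold change -0.86, SE 0.15), given as a description. In the anti-IL-8 group SERPINA1 was at 0.600-fold of control (95% CI 0.482 to 0.748, adjusted p = 0.00379). In the anti-VEGFA group it was at 0.573-fold (95% CI 0.460 to 0.714, adjusted p = 0.00267). MMP28 overexpression and the antibody cannot be told apart in these comparisons with control. Both of these comparisons use the control libraries of the comparison that chose ORM1.

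Among the OE-MMP28 groups no difference in SERPINA1 was detected. Against OE-MMP28 alone the anti-IL-8 group had a log2 fold change of 0.13 (SE 0.15, 95% CI -0.19 to 0.44, adjusted p = 0.604) and the anti-VEGFA group one of 0.06 (SE 0.15, 95% CI -0.26 to 0.38, adjusted p = 0.862). Between the antibodies it was -0.07 (SE 0.15, 95% CI -0.38 to 0.25, adjusted p = 0.856). These intervals leave out changes beyond about 0.766-fold and 1.36-fold in this fit. Epithelial markers, which could carry RNA of AsPC-1 cells, also had their highest sums in the control group, where they overlapped with the anti-VEGFA group. Their sum was 4.67 to 5.53 CPM in the control group, 2.38 to 2.95 CPM with OE-MMP28, 3.34 to 4.51 CPM with anti-IL-8 and 4.06 to 4.79 CPM with anti-VEGFA, and its part in the SERPINA1 result was not tested. MUC1 weighed most in this sum, at 28 to 65 counts per library. KRT7 had 4 to 22 counts and every other marker at most 10.

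HP encodes haptoglobin, which binds free haemoglobin, and CP encodes ceruloplasmin, a copper-binding ferroxidase. HP (ENSG00000257017, chr16:72054592-72061055, forward strand) had 1, 0 and 1 counts in the control libraries, 2, 1 and 1 with OE-MMP28, 1, 1 and 0 with anti-IL-8 and 4, 8 and 2 with anti-VEGFA. The anti-VEGFA group thus held 14 of the 22 counts, although its lowest library equalled the highest of the others, and HP was too low to be tested. The summed hepatocyte markers were also highest in the anti-VEGFA libraries, at 5.72 to 6.39 CPM against 2.72 to 4.37 CPM in the other groups. Their part in the HP counts was not tested. SERPINC1 had 13 to 47 counts per library and ALB 9 to 38, while APOB had at most 1. ALB alone overlapped, at 1.25 to 2.16 CPM with anti-VEGFA and 1.42 to 1.85 CPM in the control group. The sum therefore does not show that each marker was higher. CP (ENSG00000047457, chr3:149162410-149222055, reverse strand) had 0, 3 and 1 counts in the control libraries and 0, 8 and 3 with OE-MMP28. It had 2, 4 and 2 in the anti-IL-8 libraries and 3, 1 and 5 in the anti-VEGFA libraries, so that all groups overlapped. HP overlaps TXNL4B and CP overlaps HPS3 on the opposite strand, and the use of strand in counting is not given in the sources used here.

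SAA1 and SAA2 encode serum amyloid A, a lipoprotein-associated protein and one of the strongest acute phase reactants of the liver. SAA1 (ENSG00000173432, chr11:18266174-18269977, forward strand) had 1 count in control replicate 3 and 1 in anti-IL-8 replicate 2. SAA2 (ENSG00000134339, chr11:18239223-18248643, reverse strand) had 1 count in OE-MMP28 replicate 2, 1 in anti-VEGFA replicate 1 and 2 in anti-VEGFA replicate 2. The 2 genes are near-identical copies, and SAA2 also overlaps the readthrough gene SAA2-SAA4 on its own strand, so even these few counts are uncertain. At this depth neither gene was detected above 3 counts in any library.

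By Pearson's r over the 12 libraries of log2 CPM, among 10553 protein-coding genes with a mean of at least 50 counts, the pattern most like that of ORM1 was that of SLC41A3 (r = 0.936), CCDC115 (r = 0.929) and MARCO (r = 0.924). MARCO, a scavenger receptor of macrophages, stood at a mean of 3.79 CPM in the control group, 9.93 CPM with OE-MMP28, 11.6 CPM with anti-IL-8 and 8.27 CPM with anti-VEGFA, the same order as ORM1. For SERPINA1 the nearest were NPR1 (r = 0.963), SEMA4B (r = 0.943) and PDIA4 (r = 0.942). NPR1, a natriuretic peptide receptor, had means of 56.3 CPM in the control group and 18.7 to 25.2 CPM in the others. All these values come from the same libraries, which fall into groups, so the correlations are descriptions.

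The wider acute phase network was followed in 87 other genes, namely further acute phase proteins, inducing cytokines and their receptors, the kinases and transcription factors between them, the glucocorticoid receptor with its targets, and partners of the 8 proteins. Of these, 61 passed the filter on low counts. Most liver-made reactants did not, and APCS, FGB, FGG, HPR, SERPINA3 and AHSG had 0 counts in every library, while CRP and LBP had 1 count each in all. With OE-MMP28 none of the 61 rose and 5 fell against control (8.2%), beside 2.64% of all genes called lower. The median log2 fold change was -0.06 for the list and 0.02 for all tested genes. Counted in either direction, the 5 genes became 8 without OE-MMP28 replicate 2, where 3.12% of all genes were called. The count became 4 in several other fits. Among these were the fit without control replicate 1, with 1.79% of all genes called, and log2(FPKM + 1), with 2.99%.

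Among the genes that fell were an inhibitor of complement, a cytokine and a kinase. SERPING1, the complement C1 inhibitor, fell from 19.6 ± 1.15 to 6.17 ± 0.962 CPM (log2 fold change -1.65, adjusted p = 3.51e-06). LIF, a cytokine of the IL-6 family, fell from 53.3 ± 11.9 to 18.3 ± 4.53 CPM (-1.53, adjusted p = 0.00245). JAK2, a kinase of cytokine receptors, fell from 51.6 ± 4.33 to 33.9 ± 7.22 CPM (-0.60, adjusted p = 0.0484). All errors in these sentences are SD over the 3 libraries of a group.

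LIF was the only one of 7 tested inducing cytokines to pass in this comparison. IL6 stood at 82.3 ± 3.92 CPM in the control group and 83.3 ± 10.1 CPM with OE-MMP28 (adjusted p = 0.972). IL1B stood at 8438 ± 470 and 8993 ± 409 CPM (adjusted p = 0.815), and STAT3 at 197 ± 18.2 and 194 ± 24.4 CPM (adjusted p = 0.973; SD throughout). CEBPB, a C/EBP factor of the liver's acute phase response, was at 917 ± 45.3 and 878 ± 231 CPM (SD, adjusted p = 0.917). The glucocorticoid receptor NR3C1 was at 281 ± 16.8 and 268 ± 39.2 CPM (SD), and 0 of the 6 tested genes of its class passed.

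Against control, 4 network genes were higher and 18 lower in the anti-IL-8 group (6.56% and 29.5% of 61, beside 9.77% and 10.9% of all genes). The median was -0.14 against -0.02 for all genes. MMP28 overexpression and the antibody cannot be told apart in this comparison. The total of 22 became 14 without control replicate 2 or without anti-IL-8 replicate 1, where 8.13% and 7.94% of all genes were called. Of 6 tested genes of the glucocorticoid receptor class 4 fell, NR3C1 itself (-0.59, adjusted p = 0.00547), DUSP1 (-0.68), KLF9 (-0.67) and FKBP5 (-0.59). Of 7 tested receptors 4 fell, IL1R1 the most (-0.86, adjusted p = 3.46e-04), followed by IL1RAP (-0.68), OSMR (-0.50) and IL6ST (-0.43), the shared signalling chain of the IL-6 family. LIF (-1.63), SERPING1 (-1.21) and JAK2 (-0.96) fell as well. CEBPA rose (0.60, adjusted p = 0.0248), as did 3 partners of the 8 proteins. These were ELANE (1.06), the elastase that alpha-1-antitrypsin inhibits, FTH1 (0.63), the ferritin heavy chain, and SCARB1 (0.62), a receptor for lipoproteins. Of the 13 tested partners 2 fell, SLC40A1 the most (-1.18, adjusted p = 0.0266).

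In the anti-VEGFA group 6 network genes were higher and 11 lower than in control (9.84% and 18% of 61, beside 5.6% and 5.37% of all genes). The median was -0.11 against 0.00 for all genes. This comparison too joins MMP28 overexpression and the antibody. The total of 17 became 8 without control replicate 1 or 2, 9 without control replicate 3 and 10 without anti-VEGFA replicate 2, while 4.02% to 8% of all genes were called in these fits. SERPING1 (-1.43), DUSP1 (-1.04) and LIF (-0.94) were among those that fell. ELANE (0.88), AGER (1.13), a receptor that binds serum amyloid A, NFKBIA (0.68), TNF (0.69), PER1 (0.65) and HAMP (1.59) rose. TNF had 124, 58.7 and 136 CPM in anti-VEGFA replicates 1 to 3, so replicate 2 lay below the control libraries (60.6 to 69.8 CPM). AGER had 8.14, 18.7 and 8.75 CPM in these replicates, highest in replicate 2, against 3.89 to 6.99 CPM in the control libraries. HAMP encodes the iron hormone hepcidin, an acute phase protein itself, and had only 2 to 17 counts per library, with 0.215 ± 0.0901 CPM in the control group and 0.890 ± 0.226 CPM with anti-VEGFA (SD, n = 3 each).

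**Figure D4:**
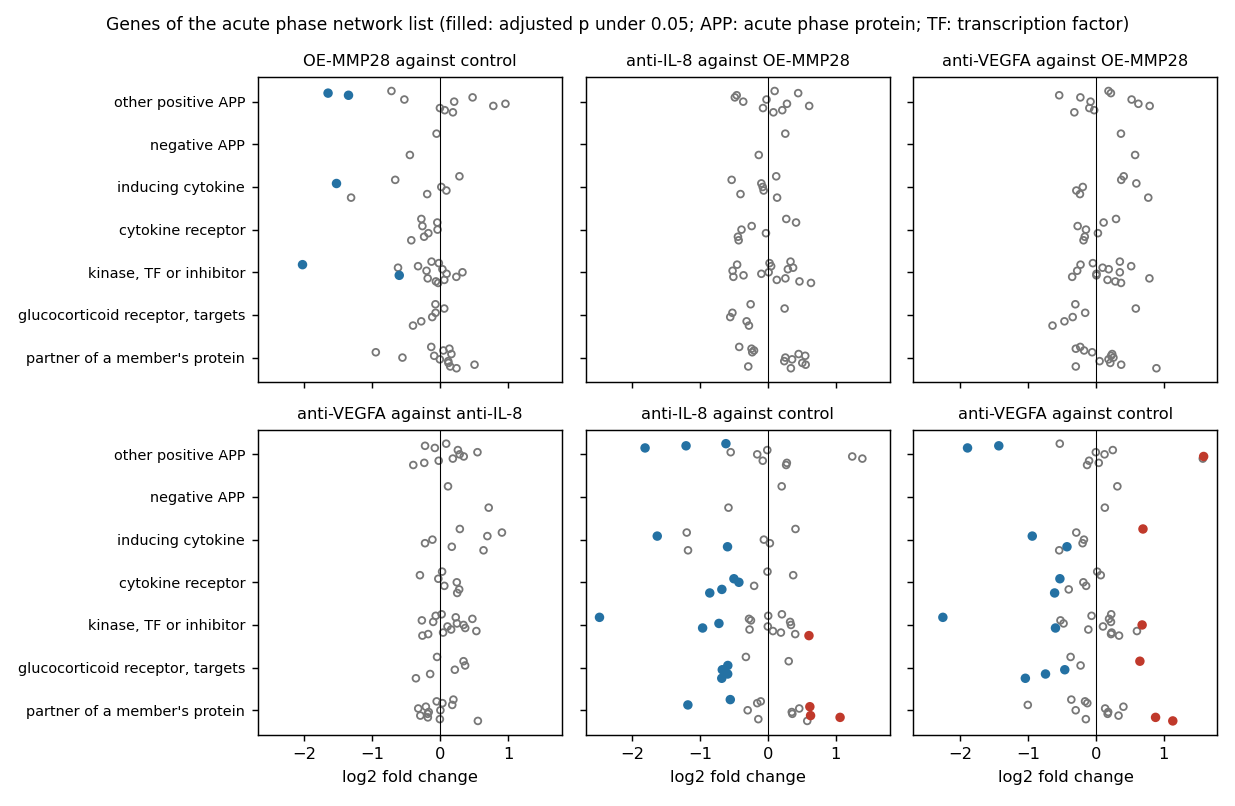
Fitted log2 fold changes of the 61 tested genes of the acute phase network list in the 6 comparisons, by role class, with filled points at an adjusted p under 0.05 (blue lower, red higher). Filled points number 5 for OE-MMP28, 22 for anti-IL-8 and 17 for anti-VEGFA against control, and 0 in the 3 comparisons among the OE-MMP28 groups.

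Among the 3 OE-MMP28 groups edgeR and voom called 0 of the 61. At an unadjusted p under 0.05, 10 were higher and 13 lower with anti-IL-8 than with OE-MMP28 alone (beside 13.4% and 15.9% of all genes), 7 and 7 with anti-VEGFA (beside 10.4% and 8.44%), and 7 and 3 with anti-VEGFA against anti-IL-8 (beside 9.39% and 5.62%). DESeq2 called 17, 4 and 0 of the 61 in these comparisons, beside 14.1%, 2.67% and 1.57% of all genes. Without OE-MMP28 replicate 3 edgeR called 23 for anti-IL-8 and 9 for anti-VEGFA against OE-MMP28 alone, beside 25% and 8.48% of all genes. Without anti-VEGFA replicate 2 it called 7 and 1, beside 7.08% and 0.51%. The largest differences at the unadjusted threshold with anti-IL-8 were in CEBPA (0.63, adjusted p = 0.0627), KLF9 (-0.56), MMP9 (0.55), ELANE (0.55) and NR3C1 (-0.52), none of which passed after adjustment.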

How the data were processed

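RNA sequencing of 12 TAM libraries gave 1 table with read counts and FPKM for 58735 genes. The deposited counts were made by the authors with HISAT2 2.0.5 and featureCounts 1.5.0-p3, per the submitters' processing notes. The authors also deposited FPKM, which was used for levels between genes. The genome build is not given in the sources used here, but all 58735 gene coordinates equal those of GENCODE 29 on GRCh38. Columns of the authors' comparisons (normalized means, fold changes and their p-values, raw and adjusted) were not used.

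Libraries were grouped by their titles. Counts were analysed in R 4.3.3 with edgeR 4.0.16 (filterByExpr over the 4 groups, TMM, quasi-likelihood fit of all 12 libraries, log2 fold changes with a prior count of 2). The SE is the absolute log2 fold change divided by the square root of the test's F. P-values were adjusted by Benjamini-Hochberg over the 16046 genes tested, at a threshold of 0.05. DESeq2 1.42.0, voom in limma 3.58.1, library totals, other filters on low counts, fits of 2 groups alone, a replicate block, log2(FPKM + 1) and log2(FPKM + 0.1), summed paralogs and leaving out each library were alternatives. Totals of 15852346 to 18701195 counts set the precision.

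The members and the lists were chosen with earlier results of these data known. Named from the network list were, per class and comparison, up to 4 genes with the largest absolute change past the adjusted threshold, or past the unadjusted one where no gene passed over all genes. IL6, IL1B, IL11, OSM, IL1A, TNF, STAT3, CEBPB and NR3C1 in the comparison of OE-MMP28 with control were named after their values were seen. The 3 genes most alike each tested member were named by Pearson's r. Sequences came from RefSeq and GENCODE 29. No protein sequences were used here. Some genes that the naming rule picked are not reported here.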

Additional observations from a re-analysis of the deposited data

How the results depend on the processing

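ORM1 and SERPINA1 kept their side of the threshold, and where called their direction, under every alternative run. Over the other settings the log2 fold change of ORM1 lay between 1.83 and 2.18 for anti-IL-8 and between 1.25 and 1.56 for anti-VEGFA against control, and leaving out 1 library moved its untested value for OE-MMP28 against control between 1.55 and 2.08. A tested value of a member was said to stay if it kept its side of the threshold. An untested one stayed if it shifted by less than the mean SD within groups, and a network count if it kept within a set ratio of the main count. By these rules 395 of 414 alternative values stayed and 19 moved, although many that stayed differed in size. All 19 were counts over the 61 network genes, and the cause was not tested. For anti-IL-8 against OE-MMP28 the count of 0 became 17 with DESeq2, 8 with no filter on low counts and 7 with the replicate block. For anti-VEGFA against OE-MMP28 it became 4 with DESeq2 and 4 with no filter, and between the antibodies 1 with no filter. For anti-IL-8 against control the count of 22 became 37 with these groups fitted alone, and for anti-VEGFA against control 17 became 11 on log2(FPKM + 0.1). Leaving out each library gave counts from 4 to 8 for OE-MMP28 against control, from 0 to 23 and from 0 to 9 for anti-IL-8 and anti-VEGFA against OE-MMP28, from 14 to 30 for anti-IL-8 and from 8 to 20 for anti-VEGFA against control. Same-numbered libraries deviated from their group means with r from -0.16 to 0.24. Such low values cannot decide whether replicate numbers pair the libraries, so pairing is unknown. SERPINA1 was lowest in replicate 2 of each group, at 152.3 CPM in control, 76.25 in OE-MMP28, 88.25 under anti-IL-8 and 87.88 under anti-VEGFA. ORM1 was lowest in replicate 2 of the anti-VEGFA group only. The SE for anti-IL-8 against control went from 0.151 to 0.115 with the replicate block for SERPINA1, and from 0.278 to 0.293 for ORM1. With the replicate block ORM1 stood at 2.07 and 1.46 against control for anti-IL-8 and anti-VEGFA, and the block changed no call of ORM1 or SERPINA1. With the block the network count for OE-MMP28 against control was 6 in place of 5, and for anti-IL-8 against control 23 in place of 22. The calls over all genes for anti-IL-8 against OE-MMP28 went from 0 to 795. An alternative chosen after seeing the data, without mitochondrial genes, gave network counts of 5, 0, 0, 0, 22 and 17 in the 6 comparisons. Depth limits ORM2, LCN2, HP, CP, SAA1 and SAA2, which were not tested because of the filter.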
